A study of Mus musculus with 4 samples.

Results

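The mitochondrially encoded genes are those carried on the small circular genome of the mitochondrion itself. They were taken as every gene of the deposited count table whose symbol starts with mt-, which gave 15 of 27293 genes. The 15 were 12 protein genes, 2 ribosomal RNA (rRNA) genes and 1 transfer RNA (tRNA) gene. Of 37 genes annotated on the mouse mitochondrial genome in GENCODE M21, the other 22 (mt-Atp8 and 21 tRNA genes) were not analysed here.

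The table held 4 bulk RNA-seq libraries of C57BL/6 mouse telencephalon at embryonic day 13, each made from 2 µg of total RNA. The WT group had 2 libraries of wild-type embryos, and the cKO group had 2 libraries of STINGf/f;Nestin-Cre embryos, in which Cre recombinase under the Nestin promoter acts in neural cells and not in every cell of the tissue. The title of WT 2 has another form ("nes") than that of WT 1 ("wt"), while its genotype label reads WT. Nothing states that the libraries come from separate animals. The p-values below thus refer to variation between these libraries, which may be technical, and edgeR estimates it partly or wholly from other genes.

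Where 4 values follow each other, they belong to the libraries WT 1, WT 2, cKO 1 and cKO 2, always in that order. Total counts were 17209654, 18533391, 18237989 and 18091688. The target of the deletion, Tmem173, which encodes STING, had 20, 19, 18 and 22 counts. These counts cover the whole gene and did not separate the labels, and which exons are flanked by loxP sites is not given in the sources used here. Group names below are therefore those of the labels. Markers of the labelled tissue were present in every library: Vim, an intermediate filament gene of neural progenitors, was at 866, 797, 832 and 901 CPM (counts scaled to a common library total), and Tubb3, a neuronal tubulin gene, at 1786, 2040, 1698 and 2246 CPM. The 7 progenitor markers together summed to 2218, 2046, 2207 and 2263 CPM. The 7 neuronal markers summed to 5031, 5837, 5595 and 4750 CPM, lowest in cKO 2 although Tubb3 was highest there.

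Mitochondrial DNA is transcribed from both of its strands into long precursors that are cut into single RNAs, largely at the tRNAs that lie between the other genes. Transcripts of one strand give both rRNAs and nearly all of the messenger RNAs, while the opposite strand gives mt-Nd6 and a minority of the tRNAs. Following common usage, genes on the plus strand of the reference are called heavy-strand genes here and genes on the minus strand light-strand genes. The proteins are core subunits of respiratory chain complexes and of ATP synthase, whose other subunits come from nuclear genes.

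The libraries stood apart from each other in the share of their counts on these 15 genes. The shares were 2.26%, 1.6%, 1.96% and 1%. Both cKO libraries lay below WT 1, but cKO 1 lay above WT 2, so the groups overlapped. Group means were 1.93% (WT, SD 0.462, n = 2) against 1.48% (cKO, SD 0.681, n = 2), a difference of -0.448 percentage points that was smaller than the SD of either group (exact two-sided permutation test, p = 0.667). With 2 libraries against 2 the smallest p this test can give is 0.333. Without cKO 2 the difference was 0.0332 percentage points, in the opposite direction.

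The same order of libraries, WT 1 above cKO 1 above WT 2 above cKO 2, held in CPM for 15 of the 15 genes. The genes are cut from shared precursors, and they are not independent observations of a condition. Among nuclear genes tested, 8.36% had this order. None of the 15 had groups that did not overlap, where 21.6% of all 16145 genes tested did.

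**Figure D1:**
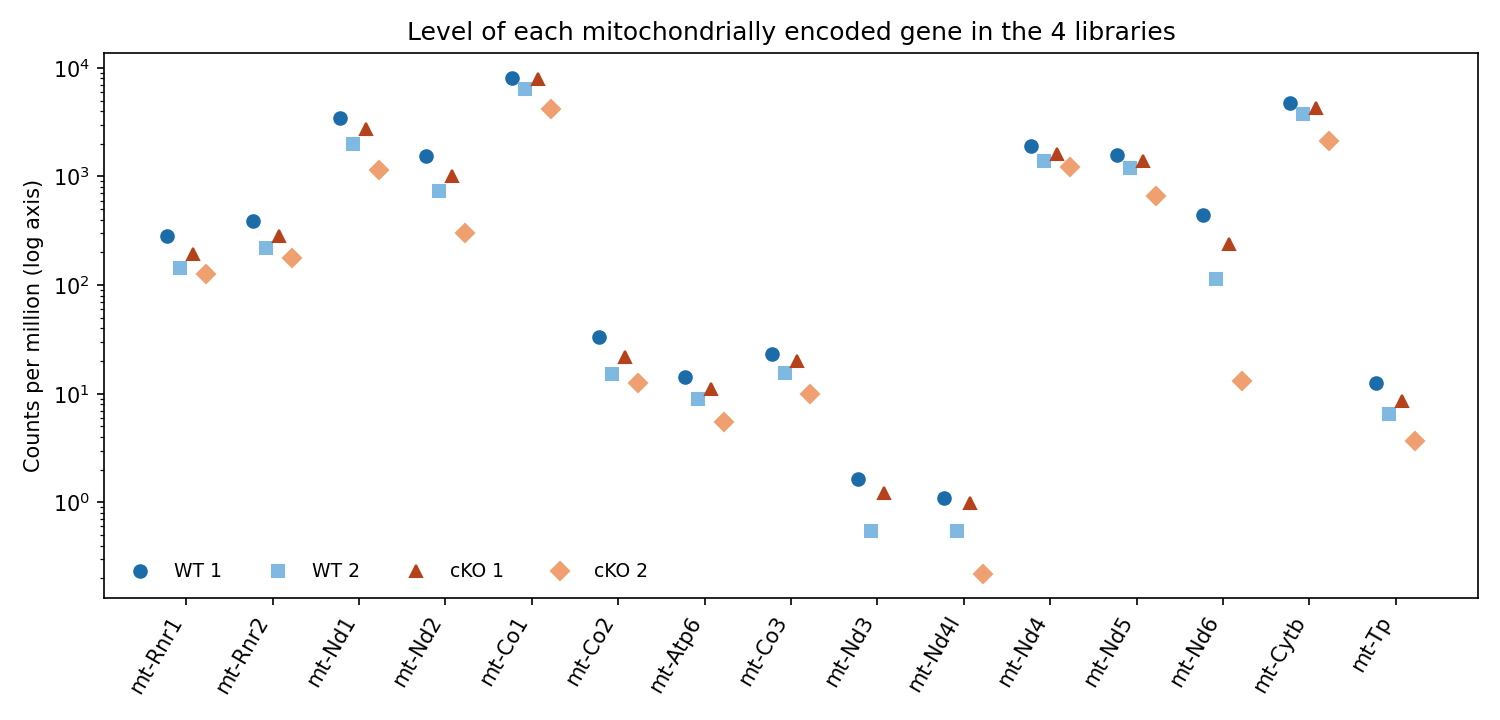
CPM (log axis) of each mitochondrially encoded gene, in order along the genome, in WT 1, WT 2, cKO 1 and cKO 2 (1 point per library). The cKO 2 point is the lowest for each gene drawn in 4 libraries, and mt-Nd3, at 0 counts in cKO 2, has no point there.

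Fitted across all genes with edgeR's quasi-likelihood test, 0 of the 15 genes passed a fold change of at least 2 with an unadjusted p of at most 0.05, the thresholds in the study's methods. Of all 16145 genes tested, 0.811% passed in either direction, 108 lower and 23 higher in cKO, or 0.669% and 0.142%, so that a list of 15 with none past them is near the background. Both counts changed with the libraries fitted: without cKO 1, 7 of the 15 and 517 of all genes passed, without WT 2, 3 and 383, and without WT 1 or without cKO 2, 0 of the 15. The split of all genes rested on WT 1, without which 48 were lower and 52 higher in cKO. None of the 16145 genes tested after the filter on low counts had a Benjamini-Hochberg adjusted p under 0.05 in edgeR (0%), nor in DESeq2. An unadjusted p under 0.05 was seen for 199 genes in edgeR. All 15 genes passed the filter on low counts, and their fitted log2 fold changes, cKO over WT, were below 0 in 15 of 15, beside 52.1% of all genes tested. Without WT 1 this count was 8 of 15, and without cKO 2 it was 9 of 15. Their median was -0.42 beside -0.01 over all genes tested. The median too rested on single libraries: it was -0.05 without WT 1 and -0.01 without cKO 2, and -1.03 without cKO 1.

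Complex I, the entry point for electrons from NADH, has 7 of its core subunits among these genes. mt-Nd1 was at 3455, 2003, 2749 and 1150 CPM. mt-Nd2 was at 1541, 731, 1009 and 304 CPM. Both were lowest in cKO 2, and for both the spread inside each group was as wide as the gap between the group means. The log2 fold change of mt-Nd2 was -0.78 (SE 0.52, edgeR, adjusted p = 1), and its highest library was 5.07 times its lowest.

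mt-Nd4 was the steadiest of the subunits, at 1911, 1374, 1612 and 1212 CPM, with a highest library 1.58 times its lowest. mt-Nd5, which lies beside mt-Nd6 on the opposite strand, was at 1567, 1209, 1391 and 668 CPM. Neither gene separated the groups. mt-Nd3 and mt-Nd4l were near the limit of detection, with 28, 10, 22 and 0 counts and with 19, 10, 18 and 4 counts, where 3 counts correspond to between 0.162 and 0.174 CPM.

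Complex III has one subunit encoded here, cytochrome b. Its gene mt-Cytb was at 4779, 3767, 4227 and 2136 CPM. The cKO 2 library alone was far from the other 3, and the log2 fold change was -0.42 (SE 0.30, edgeR, adjusted p = 1).

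Complex IV, the terminal oxidase, has 3. mt-Co1, which encodes its catalytic subunit, was at 8098, 6416, 7855 and 4182 CPM, and it had more counts than any other gene of the table in WT 1 and in cKO 1. It ranked 3 in WT 2 and 4 in cKO 2. mt-Co2 was at 33.4, 15.2, 22 and 12.6 CPM and mt-Co3 at 23.1, 15.6, 20 and 10 CPM. The ATP synthase subunit gene mt-Atp6 was at 14.2, 8.96, 11 and 5.53 CPM.

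The 2 rRNA genes encode the RNAs of the mitochondrial ribosome. mt-Rnr2 was at 393, 219, 286 and 176 CPM and mt-Rnr1 at 282, 145, 193 and 127 CPM. For both, cKO 2 lay close to WT 2, so that these genes set cKO 2 apart less than mt-Nd1 or mt-Nd2 did. Per kilobase of gene, mt-Rnr2 was at 249 CPM per kb in WT 1, beside 5241 for mt-Co1. How rRNA was removed or messenger RNA selected before sequencing is not given in the sources used here. The proline tRNA gene mt-Tp, the other light-strand gene, had 217, 120, 157 and 67 counts.

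The strands were compared per length, as CPM per kb of mt-Nd6, the one protein gene on the light strand, over the mean CPM per kb of the 11 heavy-strand protein genes. mt-Nd6 itself had 7684, 2094, 4334 and 238 counts, or 446, 113, 238 and 13.2 CPM. WT 1 was 33.9 times cKO 2, the widest range among the 14 genes with counts in every library, and inside the cKO group cKO 1 was 18.1 times cKO 2. Relative to the heavy-strand mean per kb, mt-Nd6 stood at 56.1%, 20%, 34.4% and 3.79%.

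On the log2 scale this ratio was -0.83, -2.32, -1.54 and -4.72. The groups overlapped, with cKO 1 between the 2 WT libraries. Group means were -1.58 (WT, SD 1.05, n = 2) and -3.13 (cKO, SD 2.25, n = 2), and the difference of -1.55 was larger than the SD within WT and smaller than that within cKO (exact two-sided permutation test, p = 0.667). Without cKO 2 it was 0.04. The group difference thus rested on that single library and was not seen in cKO 1, and with 2 libraries per group its source cannot be told. The level of the ratio depended on the heavy-strand genes used. Against those without a copy on chromosome 1 (described below), the log2 ratio was -1.56, -2.96, -2.18 and -5.20. Against the median heavy-strand gene it was 0.00, -1.61, -0.74 and -3.53.

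The fitted log2 fold change of mt-Nd6 was -1.15 (SE 1.04, edgeR, adjusted p = 1). It was 0.14 without WT 1, -0.22 without cKO 2, -1.81 without WT 2 and -4.38 without cKO 1. Each such fit has a lone library in one group, so its spread rests on the other group or on other genes. Without WT 1 or WT 2, edgeR used 1 spread trend for all genes. The quasi-dispersion (edgeR's measure of spread between libraries) of mt-Nd6 was then 0.995 and 0.981, beside 25.9 with all 4 libraries. The size and sign of the fold change thus changed with the library left out. With all 4 libraries in the fit, the call changed with the settings. With no filter on low counts the fold change was again -1.15, and the edgeR adjusted p was 3.14e-06. That fit gave mt-Nd6 a quasi-dispersion of 0.842 in place of 25.9. With replicate number as a block, the log2 fold change was -1.93 (edgeR adjusted p = 0.000902, quasi-dispersion 1.84). Nothing states that these numbers pair the libraries.

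**Figure D2:**
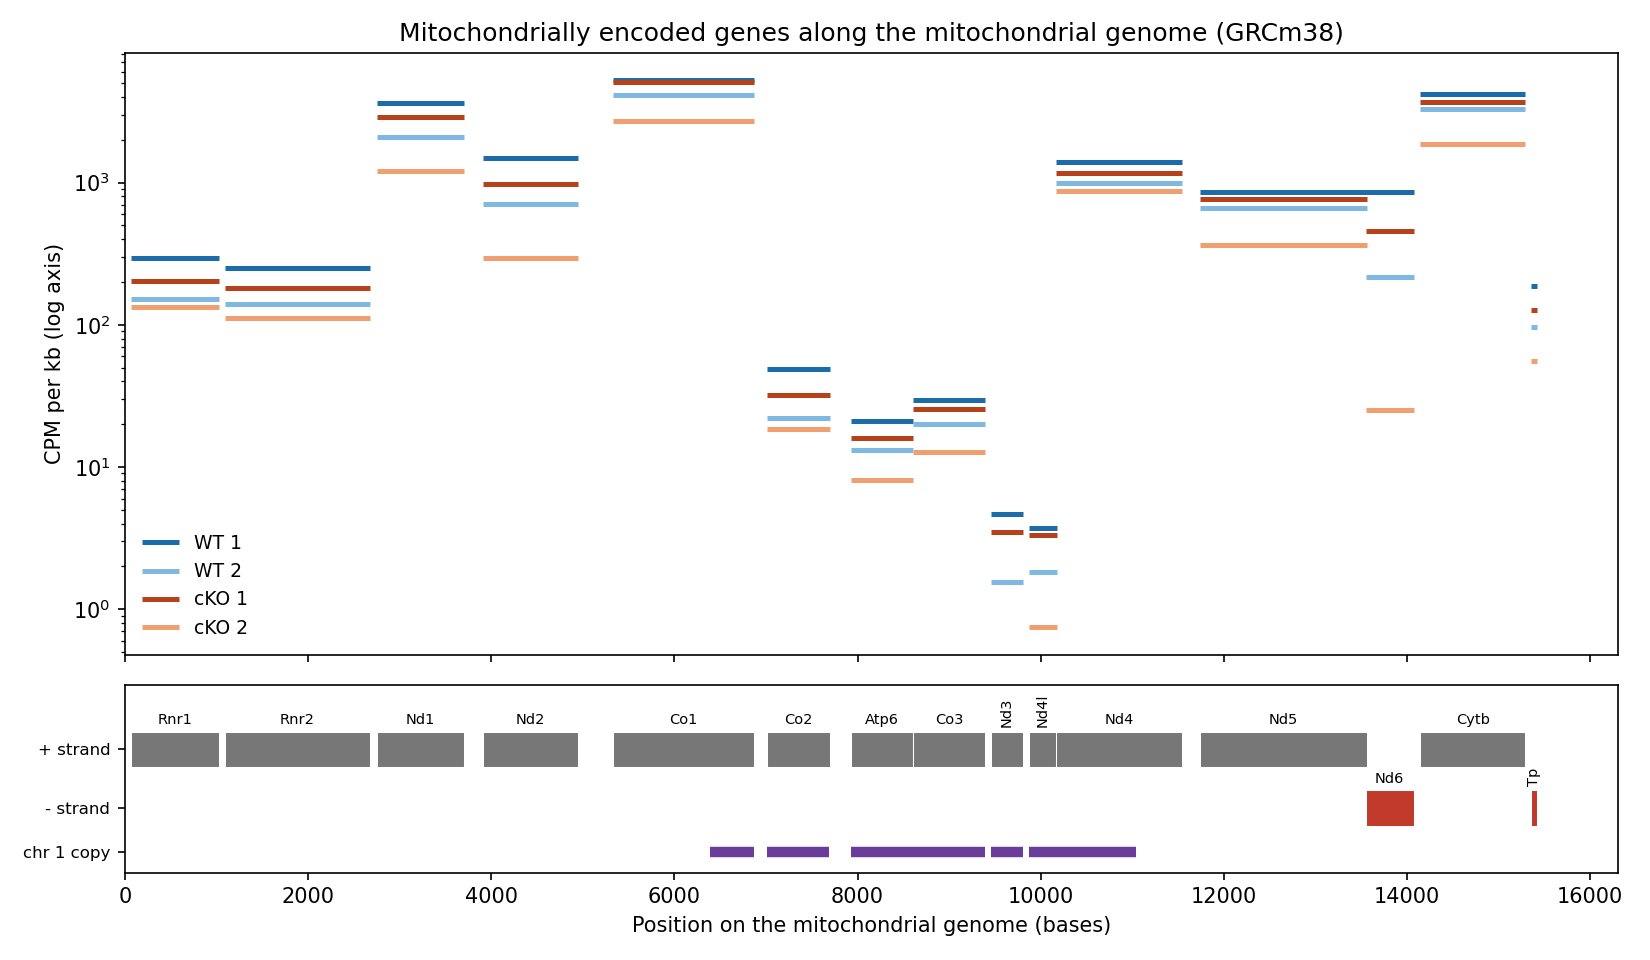
Upper panel, CPM per kb (log axis) of each mitochondrially encoded gene drawn to scale along the mitochondrial genome, 1 line per library. Lower panel, the genes by strand and the stretches aligned to a copy on chromosome 1. The lowest levels, those of mt-Co2 to mt-Nd4l, lie over the chromosome 1 copy, and mt-Nd6 has the widest gap between libraries.

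mt-Nd6 (GRCm38, MT:13552-14070, minus strand, a single coding exon) and mt-Nd5 (MT:11742-13565, plus strand) end facing each other and share 14 bases. The last 30 bases of each are shown because reads there belong to either gene unless strand is recorded, and whether the counting used strand is not given in the sources used here. Capitals mark the shared part.
mt-Nd5: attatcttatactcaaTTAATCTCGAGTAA
mt-Nd6: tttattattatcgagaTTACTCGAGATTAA
The rest of mt-Nd6 has no gene annotated opposite it, and antisense reads of heavy-strand precursors over it would be counted for it if strand was not used. The part of such reads was not tested.

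The strand also sets base composition. The mt-Nd6 RNA was 5.97% C, 28.1% G and 43.7% T, whereas mt-Cytb, its heavy-strand neighbour, was 26.9% C, 12.2% G and 29.2% T. GC was 34.1% in mt-Nd6 and 39.1% in mt-Cytb. The first 120 bases of both are given with G and C in capitals, from MT:13951-14070 on the minus strand and MT:14145-14264 on the plus strand.
mt-Nd6: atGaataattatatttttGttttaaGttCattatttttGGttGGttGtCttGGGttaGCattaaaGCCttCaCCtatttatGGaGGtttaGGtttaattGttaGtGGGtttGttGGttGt
mt-Cytb: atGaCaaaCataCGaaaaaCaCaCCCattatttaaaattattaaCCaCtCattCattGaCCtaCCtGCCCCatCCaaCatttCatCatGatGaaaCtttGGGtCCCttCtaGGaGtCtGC

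GC content moved with the libraries across the whole table. Nuclear genes were grouped by the GC of their longest annotated transcript, and each library was described by its median log2 deviation from the mean of the 4 libraries. In the 119 nuclear genes under 36% GC, this median was 0.42, -0.05, 0.29 and -0.68. In the 713 nuclear genes of at least 60% GC it was -0.06, 0.03, -0.18 and 0.21. The median of the AT-rich nuclear genes thus ranked the libraries as the mitochondrial genes did, though single genes often did not. Of those under 36% GC, 42% had the order WT 1, cKO 1, WT 2, cKO 2, beside 8.36% of all nuclear genes tested. Of the same class, 84% were lowest in cKO 2, beside 33.3% of all nuclear genes tested.

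Mitochondrial genes were read against nuclear genes of their own GC class. In cKO 2, 12 of the 15 lay below the median of their class and 3 (mt-Rnr1, mt-Rnr2 and mt-Nd4) did not. mt-Co1 deviated by -0.60 where its class median was -0.44, and 31.6% of the class was as low. mt-Nd6 deviated by -3.07 where the class median was -0.68, and 4 of 119 nuclear genes (3.36%) were as low. By this share of the class, genes with fewer counts than mt-Nd6 lay at least as far out. For mt-Tp (-0.93, class median -0.14) 2.78% of the class was as low, and for mt-Nd4l (-1.34, class median -0.32) 2.46%. On the log2 scale both lay closer to their class median than mt-Nd6 did. For mt-Nd3, which had 0 counts in cKO 2, none of 119 was as low. Among the 9 nuclear genes of that class with a mean count of at least 1000, the lowest, Vbp1, was at -1.08.

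**Figure D3:**
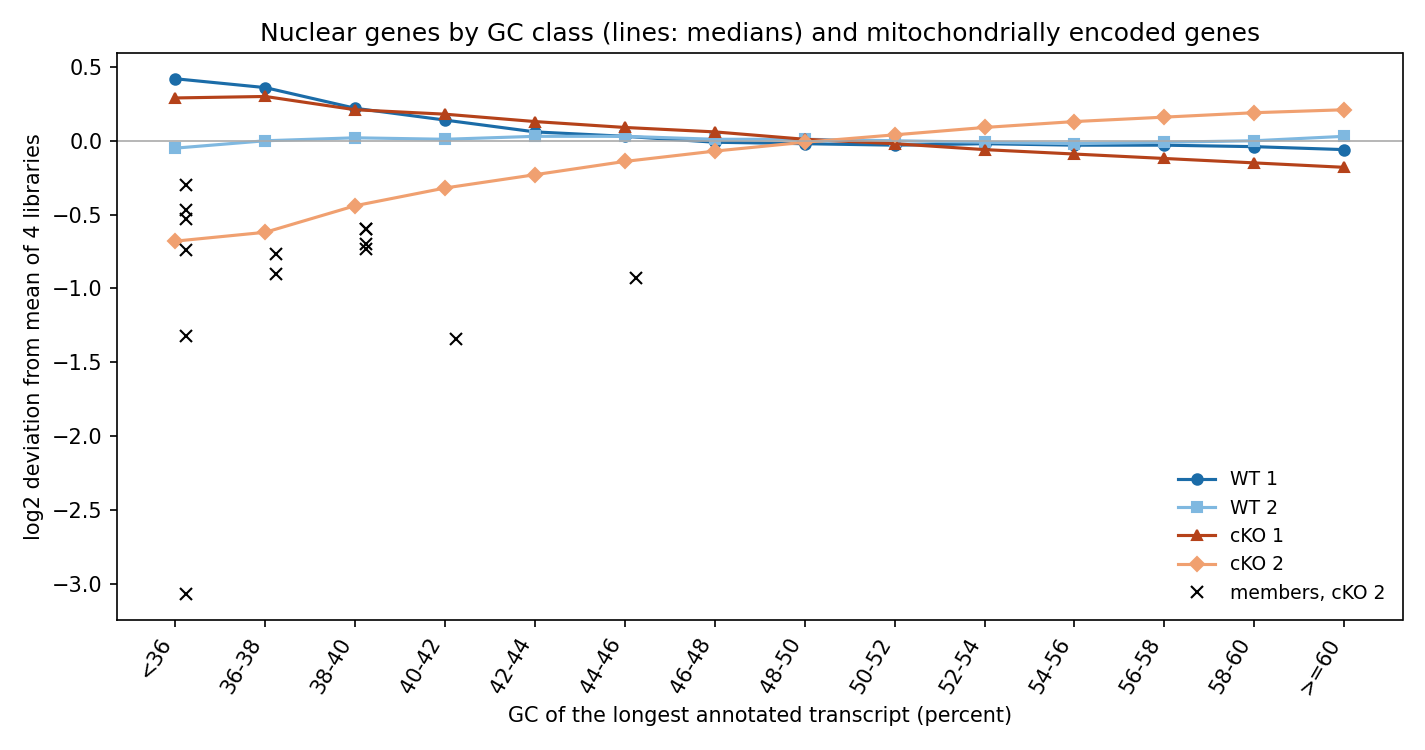
Median log2 deviation of nuclear genes from the mean of the 4 libraries (lines, 1 per library) by GC class of the longest transcript in percent, with the mitochondrially encoded genes in cKO 2 as crosses (mt-Nd3, at 0 counts there, is not drawn). The cKO 2 line falls to -0.68 in the class under 36% GC, and mt-Nd6 lies at -3.07.

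With a GC trend fitted in each library and taken out, an alternative chosen after seeing the data, the deviations of mt-Co1 were 0.08, 0.00, 0.07 and -0.15 on the log2 scale. Those of mt-Nd6 were 1.40, 0.10, 0.66 and -2.17. After it, 10 of the 15 genes were lowest in cKO 2 and 8 of 15 had the order WT 1, cKO 1, WT 2, cKO 2. The 5 no longer lowest there were mt-Rnr1, mt-Rnr2, mt-Nd4, mt-Atp6 and mt-Co2. The median log2 fold change of the 15 genes was then -0.19, with 12 below 0, and that of mt-Nd6 -1.02 (SE 0.68).

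A stretch of chromosome 1 holds copies of 7 of these genes, annotated as pseudogenes between 24611535 and 24616197 on the minus strand (GRCm38). Over the aligned stretch 6 of the copies were identical to the mitochondrial gene, and the copy of mt-Co1, Gm29216, was 99.8% identical with 1 difference in 483 bases. The starts of mt-Atp6 (MT:7927-7986, plus strand) and of its copy Gm10925 (chromosome 1, 24614592-24614651, minus strand) are shown because no read inside them can be assigned to either by sequence.
mt-Atp6: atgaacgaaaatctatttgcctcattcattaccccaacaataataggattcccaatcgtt
Gm10925: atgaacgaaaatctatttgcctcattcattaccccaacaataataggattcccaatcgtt
The one difference in the aligned part of mt-Co1 (MT:6390-6449, plus strand) and Gm29216 (chromosome 1, 24616129-24616188, minus strand) is A4T, counted from the first base shown and in capitals.
mt-Co1: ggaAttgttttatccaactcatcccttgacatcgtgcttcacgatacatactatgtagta
Gm29216: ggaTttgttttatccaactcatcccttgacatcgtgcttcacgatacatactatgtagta

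The 5 genes that such copies cover almost whole had the lowest levels per length. Of all 100-base windows of mt-Co2, 99.5% occurred in an annotated nuclear copy, and for mt-Atp6, mt-Co3, mt-Nd3 and mt-Nd4l the share was 99.5%, 99.9%, 97.6% and 98.5%. In WT 1 these genes stood at 48.8, 20.9, 29.5, 4.68 and 3.72 CPM per kb. mt-Nd4, with 60.8% of its windows shared, stood at 1387 CPM per kb, mt-Co1, with 30.8%, at 5241, and mt-Nd1, with 0%, at 3610. Among the other genes levels did not follow the share: mt-Nd5 and mt-Nd6, both with 0%, stood at 859 and 860 CPM per kb, and mt-Rnr1 and mt-Rnr2, also with 0%, at 295 and 249. How reads that fit more than one place were treated is not given in the sources used here, and its part in these levels was not tested. Levels of the 5 genes are therefore uncertain as a measure of their RNA.

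The copies had counts of their own. Gm10925 had 620, 299, 479 and 72 counts, Gm28439 (the copy of mt-Nd4) had 132, 31, 90 and 3, and Gm28438 (that of mt-Nd3) had 127, 38, 66 and 5. Gm28437 (mt-Co3) had 302, 248, 278 and 126 counts and Gm28661 (mt-Co2) 353, 203, 240 and 164. In CPM, these 5 of the 7 chromosome 1 copies had the same order of libraries as the mitochondrial genes. The copy of mt-Nd4l, Gm10222, had 11, 7, 11 and 7 counts and did not, nor did that of mt-Co1. Gm29216 had 285, 109, 104 and 66 counts, or 16.6, 5.88, 5.7 and 3.65 CPM. WT 1 stood apart as the highest, and WT 2 lay close to cKO 1. Of 9 listed nuclear copies tested, Gm29216 alone passed the study's thresholds (log2 fold change -1.25, SE 0.47, edgeR, adjusted p = 1), beside 0.811% of all genes tested. Gm13340 on chromosome 2, 97.6% identical to mt-Co1, had 17, 22, 28 and 25 counts. Gm11478, listed with the copies, had 31, 16, 20 and 15 counts, and no more than 17 aligned columns with any of the 15 genes.

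Nuclear genes that serve the mitochondrial genome were taken from fixed lists. Genes for its transcription and DNA maintenance summed to 604, 601, 615 and 612 CPM, with 0 of 20 tested past the study's thresholds and a median log2 fold change of 0.01. Polrmt, the mitochondrial RNA polymerase, was at 48.1, 62.5, 51.9 and 61.6 CPM, and Tfam, which packages the DNA and helps start transcription, at 59.8, 61.6, 60.8 and 56.8 CPM. Tfb2m, a transcription initiation factor, was at 22.5, 21.9, 26.2 and 22.1 CPM. None of these 3 genes had the order of libraries seen for the mitochondrial genes.

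Genes for RNA processing, stability and decay summed to 1134, 1106, 1152 and 1141 CPM, with 0 of 24 tested past the thresholds (median 0.06). Lrpprc, which stabilises mitochondrial messenger RNAs, was at 70.9, 78.2, 80.6 and 74.2 CPM. Its partner Slirp had 1, 1, 4 and 2 counts and was not tested. Mitochondrial ribosomal protein genes summed to 2664, 2608, 2684 and 3053 CPM (0 of 77 past the thresholds, median 0.14), and nuclear-encoded respiratory chain genes to 7431, 7569, 7308 and 9116 CPM (0 of 75, median 0.15). Both sums were highest in cKO 2, the library in which the mitochondrially encoded subunits were lowest. In that library the median log2 deviation of nuclear genes rose with GC, from -0.68 under 36% to 0.21 at 60% or more. The GC of these lists was not compared, and its part in these sums was not tested.

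Markers of other cell types also differed between libraries. The 7 meninges and mesenchyme genes summed to 287, 52.8, 76.1 and 39.5 CPM, the most abundant, Col3a1, being at 101, 22.7, 34.4 and 15.6 CPM, and 2 of 6 tested (Col1a1 and Col1a2) were lower in cKO past the thresholds. The 5 choroid plexus genes in the table summed to 42.2, 9.44, 6.25 and 8.01 CPM, with Otx2 the most abundant at 20.8, 6.69, 3.89 and 6.91 CPM, and 3 of 3 tested (Htr2c, Aqp1 and Otx2) were lower in cKO past the thresholds, beside 0.669% of all genes tested. Without WT 1, 0 genes of either list passed. These 5 genes are named after their values were seen, and all had an adjusted p of 1 (edgeR). The median log2 fold change of the meninges and mesenchyme list was -1.57, and 0.17, -2.37, -2.02 and -1.13 with each library left out in turn. That of the choroid plexus list was -2.66, and -0.66, -3.46, -3.09 and -2.02. Blood genes summed to 1093, 585, 475 and 715 CPM, with Hbb-y at 480, 181, 163 and 243 CPM. Endothelial genes summed to 158, 116, 106 and 101 CPM and microglial genes to 33.6, 23.8, 20.6 and 24.9 CPM. In each list 5 of 5 tested had a log2 fold change below 0, beside 52.1% of all genes tested. Without WT 1, 2 of 5 microglial genes were below 0, and without cKO 1 also 2 of 5. For the meninges, choroid plexus, blood, endothelial and microglial lists the sum was highest in WT 1. Ventral telencephalon genes summed to 914, 846, 577 and 865 CPM, with 6 of 6 tested below 0, and there cKO 1 stood apart as the lowest. Without cKO 1, 3 of 6 ventral genes were below 0. Their median log2 fold change was then -0.03, beside -0.26 with all 4 libraries. With all 4 libraries fitted, none of the blood, endothelial, microglial or ventral genes passed the thresholds. This did not hold in every fit with a library left out. The median log2 fold change of the blood list was -0.37, and 0.01, -0.69, -0.10 and -0.76 with each library left out in turn. No gene of these lists that is in the table was at 0 in all 4 libraries, and the choroid plexus genes Ttr and Clic6 were not analysed here. In bulk tissue, fewer cells of a type and less RNA per cell cannot be told apart, and the part of these tissues in the mitochondrial levels was not tested.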

How the data were processed

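Total RNA of 4 libraries was sequenced, and the authors deposited whole-number read counts per gene. The submitters' processing notes list TopHat2 2.0.12, Bowtie2 2.2.3, HTSeq 0.6.0 and mm9, but 97.3% of gene positions lay within 1 base of GENCODE M21 (GRCm38), whose transcripts gave sequences and GC. Handling of strand and of reads with several positions is not given in the sources used here. The authors' comparison columns (fold changes, p-values) were not used, nor were 11 blank lines. CPM is counts over each library's total. Counts were tested with edgeR 4.0.16 (R 4.3.3; TMM, filterByExpr, quasi-likelihood, no covariates), with DESeq2 1.42.0 as an alternative. The edgeR steps, not DESeq2, were also run on simulated counts. Nuclear copies were aligned with Biopython 1.88. Named genes were all protein and rRNA genes, the most counted tRNAs, fixed nuclear genes, and genes of the mitochondrial lists past the thresholds. Nuclear copies were named at a mean count of at least 10, and Gm10222 (mean count 9) as a further chromosome 1 copy. Marker genes were named by abundance. Col1a1, Col1a2, Htr2c and Aqp1 were named because they passed the thresholds. Members and lists were chosen with earlier results of these data known.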

Additional observations from a re-analysis of the deposited data

How the results depend on the processing

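The 15 genes' median was -1.03 to -0.01 when each library was left out and -0.50 with the replicate block, and it gave no direction without cKO 2 (-0.01) or WT 1 (-0.05). Genes past the study's thresholds numbered 131, and 405 with no filter on low counts, 72 with at least 10 counts in every library, 65 in DESeq2, 14 at an unadjusted p of at most 0.01, and 100 to 517 when each library was left out. Mitochondrial genes past them numbered 0, and 1 with no filter, and 0 to 7 with a library left out. At adjusted p under 0.05 the counts were 0 for all genes and 0 for mitochondrial genes, against 65 and 2 with no filter, 0 to 80 and 0 to 2 with a library left out.

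The log2 fold change of mt-Nd6 was -1.15 with no filter too, now with an adjusted p of 3.14e-06 (edgeR). That value followed from the estimate of spread: edgeR's prior degrees of freedom went from 5.97 to 2520, and the quasi-dispersion of mt-Nd6 from 25.9 to 0.842, although its counts were the same. With a library left out it was -4.38 to 0.14. The lone library is then assumed to vary like the other group, and without WT 1 or WT 2 edgeR used 1 spread trend for all genes (quasi-dispersion 0.995 and 0.981). DESeq2 gave -1.14 (adjusted p = 1).

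Replicate numbers are shared by the labels, but nothing says that they pair the libraries, and there are 2 pairs only. Deviations of same-numbered libraries had a correlation of 0.108 across genes. With the replicate block, 208 genes passed the study's thresholds, 1 of them mitochondrial, 5 and 1 had an adjusted p under 0.05, and mt-Nd6, the mitochondrial gene in both counts, was at -1.93 (adjusted p = 0.000902, edgeR, quasi-dispersion 1.84). With GC-corrected offsets and the replicate block, chosen after seeing the data, 171 genes passed, 1 of them mitochondrial, and mt-Nd6 was at -1.45 (adjusted p = 0.0795, edgeR). Why the blocked fits differ was not tested beyond these spreads.

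Leaving out each library moved the difference in share of counts from -0.929 to 0.0332 percentage points and the strand ratio from -3.14 to 0.04. The other definitions of share and ratio, with all 4 libraries, kept the direction, among them a ratio to heavy-strand genes without a chromosome 1 copy (-1.43), chosen after seeing the data.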
